A study of Mus musculus with 6 samples.

Results

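The Rab genes encode small GTPases that direct vesicle traffic, and they were taken as every gene whose symbol is Rab followed by a number and at most a letter and a digit. This gave 48 of the 10528 genes tested, on 76 probes. Genes were sought only among probes with a log2 value deposited by the authors, so 2448 of the 22119 probes tested were left out of this search. Proteins that only bind a Rab were left out of the members. Where several probes measure a gene, its values come from the brightest of them, by the mean of the authors' log2 values. Of the 59 Rab symbols in the RefSeq annotation (GRCm38.p6), the other 11 were not analysed here.

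Gene expression had been measured in LSK cells, the lineage-negative, Sca-1+ c-Kit+ bone marrow fraction that holds hematopoietic stem cells and multipotent progenitors. The PU.1-deficient cells came from *Spi1*fl/fl *MxCre*+ mice, in which both alleles of *Spi1*, the gene for the transcription factor PU.1, can be deleted. The wild-type cells came from *Spi1*+/+ *MxCre*+ mice. Both genotypes were C57BL/6, were 6 to 12 weeks of age, carried the *MxCre* transgene and received 2 injections of polyIC 3 days apart, each of 5 µg per g body weight. PolyIC induces interferon, which switches on *MxCre* in many cell types, so deletion can also occur outside LSK cells. The cells were taken 14 days after polyIC. There were 3 pools per genotype, each of 15 to 20 mice and each on 1 Illumina whole-genome mouse array, so the spread is that between pools of mice and not between single mice.

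Rab proteins switch between a GTP-bound form on membranes and a GDP-bound form in the cytosol. Guanine nucleotide exchange factors (GEFs) switch them on, GTPase-activating proteins (GAPs) switch them off, and the GTP-bound form recruits effectors such as tethers and motors. Each Rab marks particular membranes, from the endoplasmic reticulum and the Golgi to endosomes, lysosomes and secretory granules. In granulocytes and mast cells, Rab27a and Rab3d act in the release of granules.

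*Spi1* had a log2 intensity of 6.62, 5.80 and 6.00 in the PU.1-deficient pools, against 8.54, 8.51 and 8.69 in the wild-type pools, for a log2 fold change of -2.44 (adjusted p = 0.00112 from *limma*, as for every adjusted p given here). The arrays detected 15639 to 18174 probes each, and their number limits the precision of every value. Over all tested probes, PU.1-deficient pools 1 and 2 correlated at 0.947, and each of them with pool 3 at 0.983 and 0.964. Wild-type pool 1 stood apart from wild-type pools 2 and 3, at 0.956 and 0.958, where these correlated at 0.992. Pools of different genotype correlated at 0.908 to 0.951, so the closest of them were nearer than PU.1-deficient pools 1 and 2. Of 7 genes tested that define LSK cells and progenitors, *Cd34*, *Slamf1* and *Meis1* were lower in the PU.1-deficient pools. The other 4 did not pass, and *Ly6a* (Sca-1) was not among the genes tested. *Kit* was bright in all 6 pools, at 11.88 to 12.27 in PU.1-deficient and 12.44 to 12.67 in wild-type pools. These pools did not overlap, but its log2 fold change of -0.44 did not pass (adjusted p = 0.221). That of *Flt3* was -1.21 (adjusted p = 0.0621), also without overlap. Genes of other lineages also differed. Of 16 genes tested of neutrophils and their precursors, 11 were higher and 1 was lower in PU.1-deficient pools, and their summed linear intensity was 165122 to 180478 there, against 34742 to 64418 in wild-type pools. Of 7 basophil and mast cell genes, 2 were higher (*Mcpt8* and *Cpa3*), and the sums were 6819 to 8689 in PU.1-deficient pools and 1960 to 3641 in wild-type pools. None of the tested genes of these 2 lists was undetected in all wild-type pools, while 1 basophil and mast cell gene was undetected in all PU.1-deficient pools. Of 6 monocyte and macrophage genes, 4 were lower (443 to 567 in PU.1-deficient pools and 914 to 1889 in wild-type pools). Likewise lower were 6 of 7 erythroid and 7 of 8 megakaryocyte genes. The list of mature lineage genes gave no check of the sort, because the 4 of its genes that were tested (*Cd4*, *Klrb1c*, *Ms4a1* and *Ptprc*) leave out *Cd3e*, *Cd8a*, *Itgam*, *Ly6g* and *Ly76*, and *Ptprc* (CD45) is expressed by LSK cells themselves. *Xist*, which coats and silences an X chromosome in female cells, was found in all 3 PU.1-deficient pools but only 1 wild-type pool, with a log2 fold change of 5.62. The log2 intensity of *Xist* was 9.93, 10.01 and 11.06 in PU.1-deficient pools, against 4.48, 4.48 and 5.18 in wild-type pools. The labels used here do not give the sex of the mice, which may therefore differ between the genotypes. Such a difference would coincide with genotype in all 6 pools. The part of sex in any of the values therefore cannot be told apart from that of genotype, and was not tested. In bulk cells, a change in the share of cells that express a gene and a change in the RNA per cell cannot be told apart.

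Of the 48 Rab genes, 8 were higher and 1 was lower in PU.1-deficient than in wild-type LSK cells at an adjusted p under 0.05 over all probes. These were 16.7% and 2.08% of the Rab genes, where 6.61% of all genes tested were higher and 5.59% were lower. The genes that rose were *Rab3d*, *Rab44*, *Rab15*, *Rab27a*, *Rab21*, *Rab9*, *Rab19* and *Rab28*, and the gene that fell was *Rab31*. The median log2 fold change of the Rab genes was 0.08, against -0.04 over all genes tested. With scaling to equal medians, which moved the median of all genes to -0.27, the median of the Rab genes was -0.12. In that fit 4 Rab genes were higher and 1 was lower, where 3.32% of all genes were higher and 6% were lower. All 3 PU.1-deficient pools lay above all 3 wild-type pools for 12 Rab genes and below them for 8, and the genotypes overlapped for the other 28. The background of such separation was 16.2% of all genes above and 18.3% below. In all 6 pools, 36 of the Rab genes were detected. No test of the Rab genes as a list was made.

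**Figure D1:**
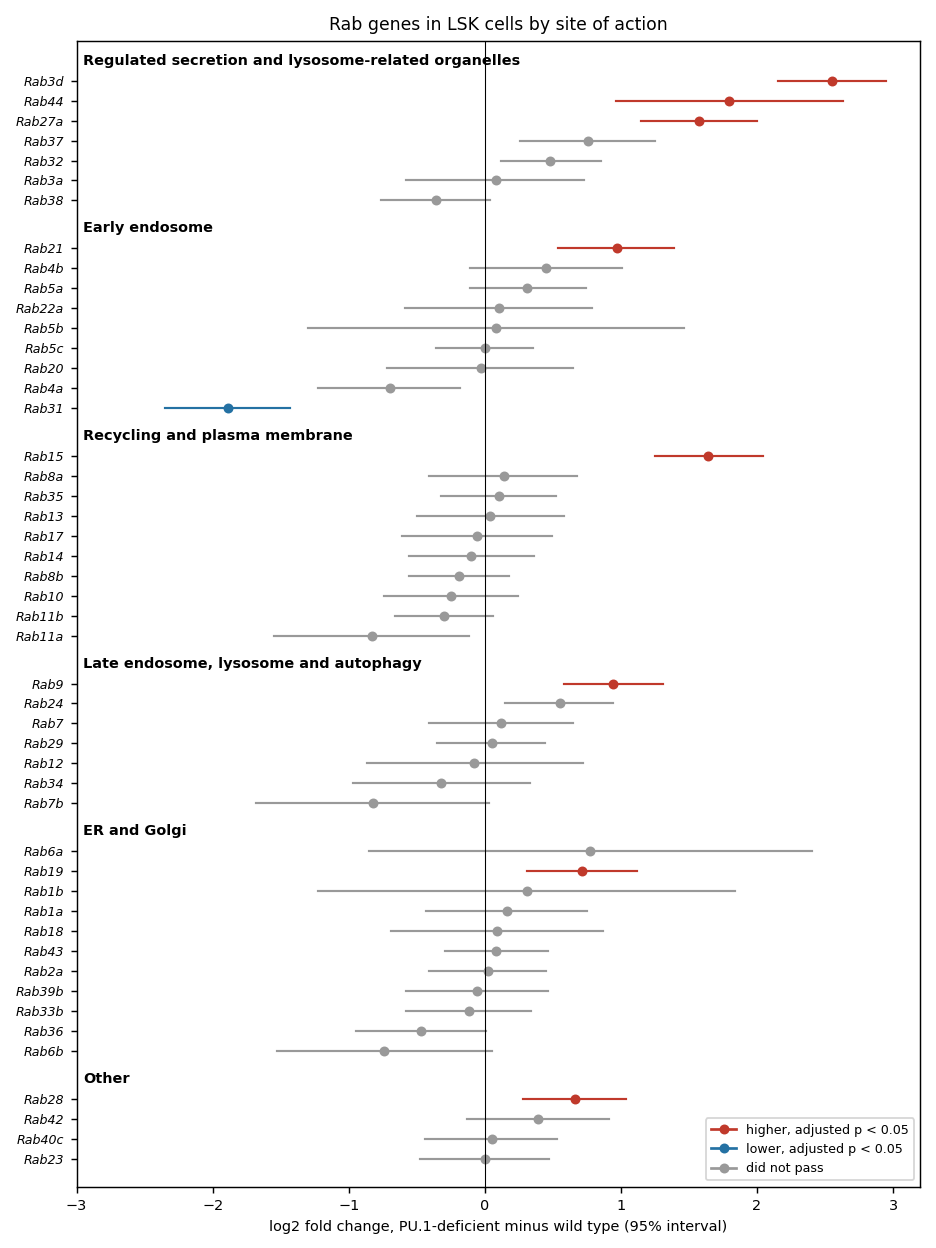
Log2 fold change (PU.1-deficient minus wild type, x axis) with its 95% interval for the 48 Rab genes, 1 line per gene, grouped by the membrane on which each Rab acts (3 pools per genotype). In the secretion group the intervals of *Rab3d*, *Rab44* and *Rab27a*, which passed, and of *Rab37* and *Rab32*, which did not, lie above 0. That of *Rab31*, which passed, and those of *Rab4a* and *Rab11a*, which did not, lie below 0, and the widest are those of *Rab6a*, *Rab1b* and *Rab5b*.

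The Rabs of regulated secretion and lysosome-related organelles had the highest median of the 6 groups, a log2 fold change of 0.76 over 7 genes. Of these, 3 rose (42.9%, against 6.61% of all genes tested), none fell and 4 did not pass. The groups were drawn with earlier results of these data known, so this rank is a description and not a test. *Rab3d* is a Rab of secretory granules in exocrine and mast cells. Its log2 intensity was 11.35, 11.43 and 11.19 in the PU.1-deficient pools, against 8.93, 8.68 and 8.72 in the wild-type pools. The gap between the genotypes was far wider than the spread within either. Its change of 2.55 ± 0.17 on the log2 scale (SE, adjusted p = 0.000211), or 5.85-fold, was the largest fitted change among the Rab genes detected in both genotypes.

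*Rab27a* docks lysosome-related organelles at the plasma membrane, and its loss in humans causes Griscelli syndrome, in which cytotoxic granules are not released. It had 12.10, 12.23 and 12.16 in the PU.1-deficient pools, against 10.40, 10.53 and 10.84 in the wild-type pools on the log2 scale. All PU.1-deficient pools were higher than all wild-type pools, and the log2 fold change was 1.57 ± 0.18 (SE, adjusted p = 0.00219), or 2.98-fold. *Rab44*, a large Rab that in mice takes part in mast cell degranulation, had 11.83, 11.70 and 11.73 in PU.1-deficient pools, against 10.32, 9.08 and 10.47 in wild-type pools. Wild-type pool 2 was thus well below the other wild-type pools, but all 3 were below every PU.1-deficient pool. The log2 fold change was 1.79 (SE 0.36, adjusted p = 0.0211). Without PU.1-deficient pool 1, 2 or 3, the adjusted p of *Rab44* was 0.0788, 0.0522 or 0.0815. The dimmer probe of *Rab44* gave 0.54 and did not pass (adjusted p = 0.225), with 2 of 3 PU.1-deficient pools and 1 of 3 wild-type pools detected.

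*Rab37*, which lies on secretory granules of mast cells, had 8.23, 7.90 and 7.53 in PU.1-deficient pools, against 7.07, 7.12 and 7.19 in wild-type pools. The pools did not overlap, but the log2 fold change of 0.76 did not pass (adjusted p = 0.0758). *Rab32* and *Rab38* deliver enzymes to melanosomes and other lysosome-related organelles. *Rab32* had 10.94, 10.85 and 10.97 in PU.1-deficient pools, against 10.38, 10.43 and 10.51 in wild-type pools, with a log2 fold change of 0.48 that did not pass (adjusted p = 0.12). *Rab38* went the other way without passing, with 10.76, 10.93 and 10.92 in PU.1-deficient pools and 11.07, 11.40 and 11.23 in wild-type pools, a log2 fold change of -0.36 (adjusted p = 0.286). Its second probe gave -0.41. *Rab3a*, the Rab of synaptic vesicles, was the member of this group whose pools overlapped, at 6.31, 6.87 and 6.24 in PU.1-deficient pools and 5.98, 6.35 and 6.86 in wild-type pools. Its log2 fold change of 0.08 had a 95% interval of -0.58 to 0.73. Beside the 3 secretion Rabs that rose, 11 of 16 genes of neutrophils and their precursors and 2 of 7 basophil and mast cell genes rose as well, while the other 5 basophil and mast cell genes did not pass. Cells bearing CD11b or Gr-1 had been depleted before the sort, and the part of such cells or of their genes in these values was not tested.

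**Figure D2:**
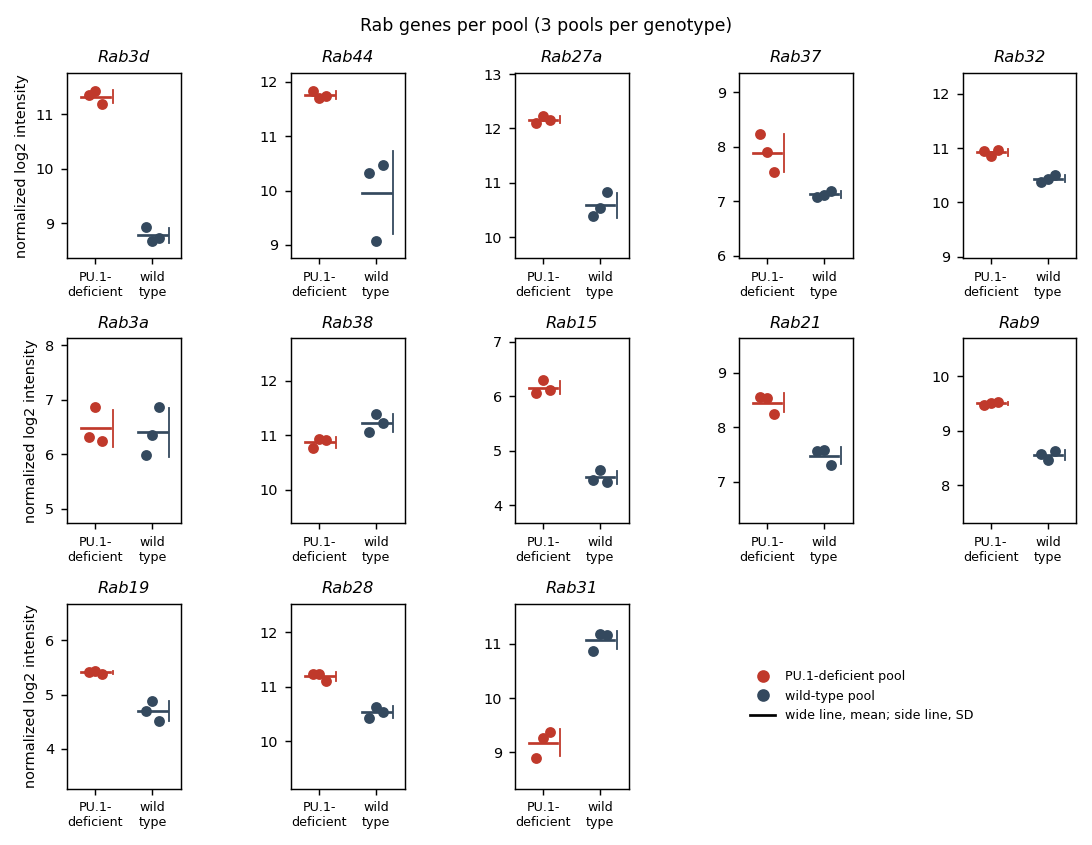
Normalized log2 intensity (y axis, of the same height in every panel) in each PU.1-deficient (left) and wild-type (right) pool for the 9 Rab genes past the threshold and the other members of the secretion group. Points are pools, wide lines are means and side lines are SD (n = 3). The points separate fully in every panel but *Rab3a*, and wild-type pool 2 stands low for *Rab44*.

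Among the 9 Rabs of early endosomes, 1 rose, 1 fell and 7 did not pass. *Rab31*, which carries cargo between the trans-Golgi network and endosomes, was the sole Rab gene past the threshold in the lower direction. Its log2 intensity was 8.90, 9.26 and 9.38 in the PU.1-deficient pools, against 10.87, 11.17 and 11.16 in the wild-type pools. The genotypes were more than 1 log2 unit apart at their nearest pools. The fitted change of *Rab31* was -1.89 ± 0.20 (SE, adjusted p = 0.00148), a 3.70-fold lower level, and the highest adjusted p without any 1 pool was 0.0137. The monocyte and macrophage, erythroid and megakaryocyte lists were lower in the same pools, and their part in this value was not tested.

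*Rab21*, which regulates the endocytosis of integrins, had 8.56, 8.54 and 8.25 in PU.1-deficient pools, against 7.56, 7.58 and 7.31 in wild-type pools. The lowest PU.1-deficient pool was above the highest wild-type pool. The log2 fold change of *Rab21* was 0.97 (SE 0.18, adjusted p = 0.0164), or 1.95-fold. It did not pass without PU.1-deficient pool 1 (adjusted p = 0.0712), wild-type pool 2 (0.0636) or wild-type pool 3 (0.0862), or with scaling to equal medians (0.275). *Rab4a*, a Rab of rapid recycling, had 6.97, 7.70 and 7.33 in PU.1-deficient pools, against 7.89, 8.15 and 8.08 in wild-type pools. It was lower in every PU.1-deficient pool, but its log2 fold change of -0.70 did not pass (adjusted p = 0.113). Without PU.1-deficient pool 2 it was -0.89 and passed (adjusted p = 0.0451).

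The closest match between genotypes was that of *Rab5c*, a Rab of the sorting endosome that shares its class with *Rab5a* and *Rab5b*. *Rab5c* had 11.52, 11.57 and 11.52 in PU.1-deficient pools and 11.54, 11.57 and 11.53 in wild-type pools. The 95% interval of its log2 fold change was -0.36 to 0.35. *Rab5b* had a wide interval instead, from -1.30 to 1.46 around a log2 fold change of 0.08, because pools of the same genotype differed. It was at 6.48, 8.16 and 7.85 in PU.1-deficient pools and at 6.24, 8.06 and 7.94 in wild-type pools, so that pool 1 of each genotype was low. The remaining 4 genes of the early endosome group, *Rab4b*, *Rab5a*, *Rab20* and *Rab22a*, had log2 fold changes of -0.03 to 0.45, and none passed.

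Of the 10 Rabs of recycling and of the plasma membrane, 1 rose and 9 did not pass. *Rab15*, a Rab of the endocytic recycling compartment, had 6.07, 6.30 and 6.11 in PU.1-deficient pools, against 4.47, 4.65 and 4.43 in wild-type pools. All 3 PU.1-deficient pools detected it, and no wild-type pool had it above background. *Rab15* was therefore higher in the PU.1-deficient pools by at least 2.27-fold (adjusted p = 0.00136), where the bound sets the mean of the PU.1-deficient pools against the lowest signal of detected probes in the wild-type pools. *Rab11a*, the Rab of the recycling endosome, had 6.35, 5.49 and 5.93 in PU.1-deficient pools, against 7.28, 6.57 and 6.42 in wild-type pools. The pools did not overlap, yet the log2 fold change of -0.83 did not pass (adjusted p = 0.165), with an SD of 0.43 in PU.1-deficient and 0.46 in wild-type pools. *Rab11b*, its close relative, had 12.22, 12.30 and 12.22 in PU.1-deficient pools, against 12.52, 12.61 and 12.52 in wild-type pools. These pools did not overlap either, and the small log2 fold change of -0.30 did not pass (adjusted p = 0.328). The dimmer probe of *Rab11b*, detected in 2 of 3 pools of each genotype, gave 0.22 (adjusted p = 0.769). The mean of its probes gave -0.04. The other 7 genes of the group, *Rab8a*, *Rab8b*, *Rab10*, *Rab13*, *Rab14*, *Rab17* and *Rab35*, had log2 fold changes of -0.25 to 0.14, and none passed.

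Among the 7 Rabs of late endosomes, lysosomes and autophagy, 1 rose and 6 did not pass. *Rab9*, which returns mannose 6-phosphate receptors from late endosomes to the trans-Golgi network, had 9.47, 9.51 and 9.53 in PU.1-deficient pools, against 8.58, 8.46 and 8.63 in wild-type pools. Its pools were tight within each genotype (SD 0.03 in PU.1-deficient and 0.09 in wild-type pools), and the log2 fold change was 0.94 (SE 0.16, adjusted p = 0.0101), or 1.92-fold. Without wild-type pool 2 the adjusted p of *Rab9* was 0.0618, and with scaling to equal medians it was 0.225. The other 2 probes of *Rab9* gave 0.43 and 0.24, were close to background and did not pass, and the mean of its 3 probes gave 0.54 (adjusted p = 0.108). *Rab9* lies on the X chromosome, and the difference in *Xist* between the genotypes stands beside this value too.

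*Rab24*, a Rab of autophagy, had 10.22, 9.93 and 10.09 in PU.1-deficient pools, against 9.64, 9.49 and 9.46 in wild-type pools. Its log2 fold change of 0.55 did not pass (adjusted p = 0.102), and its other probes gave 0.64 and 0.40. *Rab7b*, which acts between late endosomes and the Golgi, was not above background in any PU.1-deficient pool and was detected in 2 of 3 wild-type pools. It was at least 1.26-fold lower on one probe and at least 1.27-fold lower on the other, and neither passed (adjusted p = 0.252 and 0.149). *Rab29*, a partner of the kinase LRRK2, had an interval of -0.35 to 0.44. *Rab7*, *Rab12* and *Rab34* had log2 fold changes of -0.32 to 0.12 and did not pass.

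The Rabs of the endoplasmic reticulum and the Golgi were the largest group, with 11 genes, of which 1 rose and 10 did not pass. *Rab19*, a little-studied Rab of the Golgi, had 5.42, 5.43 and 5.38 in PU.1-deficient pools, against 4.69, 4.89 and 4.51 in wild-type pools. All 3 PU.1-deficient pools detected it and no wild-type pool did, which bounds the rise at 1.35-fold or more (adjusted p = 0.0448). The call of *Rab19* was lost when any 1 of the 6 pools was left out, with adjusted p-values up to 0.187, and also with an offset of 50 (0.0919), without background correction (0.136) and with equal medians (0.236). *Rab36* was not above background in any PU.1-deficient pool and did not pass (at least 1.02-fold lower, adjusted p = 0.244). *Rab6b*, a form of Rab6 that is enriched in brain, had 5.57, 6.14 and 5.93 in PU.1-deficient pools and 5.86, 7.05 and 6.95 in wild-type pools, and its log2 fold change of -0.74 did not pass (adjusted p = 0.27). Without wild-type pool 1, the low one of its genotype, *Rab6b* was at -1.12 and passed (adjusted p = 0.0273). *Rab2a* and *Rab43*, which act between the endoplasmic reticulum and the Golgi, had intervals of -0.41 to 0.45 and -0.29 to 0.46. *Rab1a*, *Rab18*, *Rab33b* and *Rab39b* had log2 fold changes of -0.12 to 0.16 and did not pass.

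Of the other 4 Rab genes, *Rab28* rose and 3 did not pass. *Rab28*, known for its part in cilia and photoreceptors, had 11.23, 11.23 and 11.10 in PU.1-deficient pools, against 10.42, 10.63 and 10.54 in wild-type pools. The log2 fold change was 0.66 (SE 0.16, adjusted p = 0.0472), the weakest call among the Rab genes. Its other probes gave 0.73 and 0.58 and did not pass, and leaving out any 1 pool ended the call, with adjusted p-values up to 0.167. With equal medians the adjusted p was 0.381, and over the mean of the 3 probes it was 0.0864. *Rab23*, an inhibitor of Hedgehog signalling, was not above background in any PU.1-deficient pool and was detected in 1 of 3 wild-type pools. *Rab40c* and *Rab42* did not pass either.

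Beside the comparison of genotypes, the arrays hold the agreement between probes of a gene and the spread between pools. For 19 Rab genes more than 1 probe was tested, which gave 28 further probes. The sign of the change was the same on all probes for 15 of these genes, and none of the 28 further probes passed. The median SD within a genotype was 0.24 over the Rab genes and 0.26 over all genes tested. It was highest for *Rab6a* (1.14), *Rab1b* (1.07) and *Rab5b* (0.96).

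*Rab1b*, which acts in traffic from the endoplasmic reticulum to the Golgi, shows the disagreement in detail. Its brightest probe had 8.69, 6.71 and 8.36 in PU.1-deficient pools and 8.85, 6.89 and 7.09 in wild-type pools. The next probe of *Rab1b* had 7.01, 7.81 and 7.10 in PU.1-deficient pools and 6.46, 7.0 and 7.13 in wild-type pools. PU.1-deficient pool 2 was thus the lowest of its genotype on one probe and the highest on the other, and wild-type pool 1 was the highest on one and the lowest on the other. *Rab6a*, a Rab of the Golgi, held such a pair of probes as well. Its brightest probe had 8.09, 5.85 and 7.92 in PU.1-deficient pools and 7.69, 5.83 and 6.03 in wild-type pools. A dimmer probe of *Rab6a* had 5.69, 6.71 and 5.77 in PU.1-deficient pools and 5.23, 5.49 and 5.32 in wild-type pools. Not every further probe disagreed, since another *Rab6a* probe followed the brightest, with 6.30, 4.73 and 6.30 in PU.1-deficient pools and 5.34, 4.62 and 4.62 in wild-type pools. The log2 fold changes of the brightest probes, 0.31 for *Rab1b* and 0.77 for *Rab6a*, did not pass (adjusted p = 0.861 and 0.612). A fit chosen after the data were seen left out PU.1-deficient pool 2 and wild-type pool 1. On both brightest probes these were the lowest and the highest pool of their genotype, so removing them must raise the change. The values of that fit, 1.54 for *Rab1b* and 2.07 for *Rab6a*, are therefore no test of a rise. In the pools kept, the next *Rab1b* probe was nearly level, at 7.01 and 7.10 in PU.1-deficient and 7.0 and 7.13 in wild-type pools. The other *Rab6a* probes given here stayed higher in the PU.1-deficient pools kept.

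*Rab5a*, the Rab of early endosome fusion, and *Rab24* each had a steady brightest probe and at least 1 probe that followed the pools. The brightest probe of *Rab5a* lay between 7.75 and 8.37 in all 6 pools. Another *Rab5a* probe had 8.28, 6.18 and 7.01 in PU.1-deficient pools and 7.89, 5.78 and 5.62 in wild-type pools. PU.1-deficient pool 1 and wild-type pool 1 were high on it. The dimmest probe of *Rab24* had 8.29, 6.60 and 8.13 in PU.1-deficient pools and 8.15, 6.73 and 6.94 in wild-type pools, a pattern of pools like that of the brightest *Rab1b* probe.

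**Figure D3:**
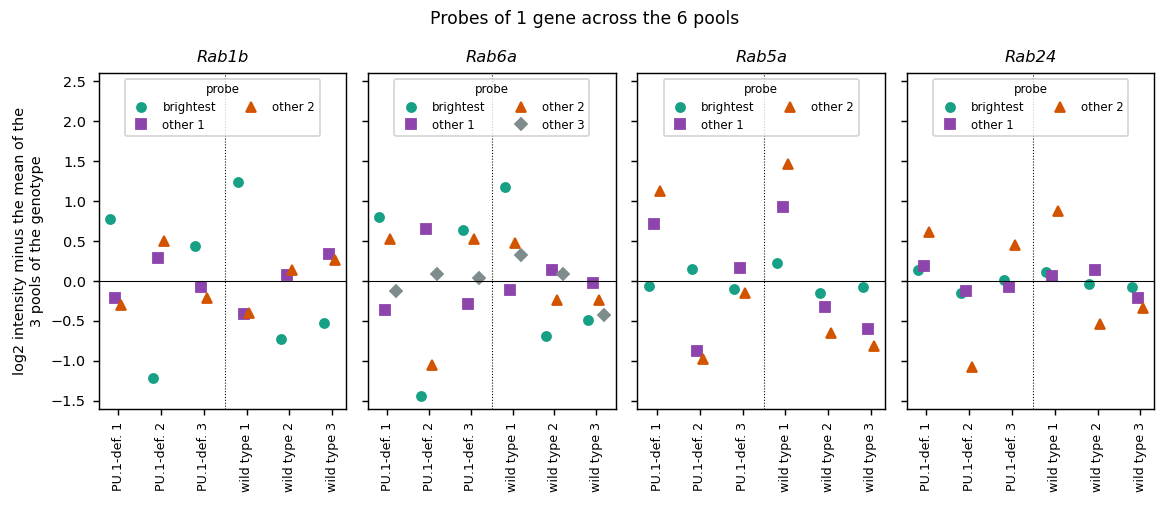
Deviation of each pool from the mean of its genotype (log2 intensity, y axis) for every tested probe of *Rab1b*, *Rab6a*, *Rab5a* and *Rab24*, with the PU.1-deficient pools left of the dotted line and the wild-type pools right of it. Circles are the brightest probe and other symbols the further probes of the gene. For *Rab1b* the brightest probe and the other probes lie on opposite sides of 0 in all 6 pools.

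RefSeq promoters were matched for 40 of the 48 Rab genes, with 52 windows of the 250 bases before a transcription start (GRCm38.p6), and *Rab44* was not among them. They were searched on both strands for GGAA, the core that ETS factors such as PU.1 bind, for GAGGAA, a longer PU.1 motif that contains this core, and for TTGCNNAA, a motif of C/EBP factors. GGAA was in 92.3% of the Rab windows and in 93.4% of all 32851 promoters. GAGGAA was in 13.5% of the Rab windows and in 23.3% of all promoters, and TTGCNNAA in 5.77% and 9.56%. Of the 8 genes past the threshold that have a window, only *Rab21* held GAGGAA, with 2 matches, and none held TTGCNNAA. Shown are the windows of the gene with the largest fitted rise (*Rab3d*), of its partner in granule release (*Rab27a*, the first of 2 windows), of the gene that fell (*Rab31*) and of the gene with the GAGGAA matches (*Rab21*). They are given in 5′ to 3′ direction on the strand of the gene, with every match to the 3 motifs in capitals. *Rab3d* lies at chr9:21918184-21918433 (minus strand), *Rab27a* at chr9:73044560-73044809 (plus strand), *Rab31* at chr17:65772753-65773002 (minus strand) and *Rab21* at chr10:115315592-115315841 (minus strand).
Rab3d: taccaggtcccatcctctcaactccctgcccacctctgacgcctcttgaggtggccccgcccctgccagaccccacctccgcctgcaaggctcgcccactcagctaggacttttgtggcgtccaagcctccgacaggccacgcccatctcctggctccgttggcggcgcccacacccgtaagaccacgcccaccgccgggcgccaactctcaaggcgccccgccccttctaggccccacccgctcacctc
Rab27a: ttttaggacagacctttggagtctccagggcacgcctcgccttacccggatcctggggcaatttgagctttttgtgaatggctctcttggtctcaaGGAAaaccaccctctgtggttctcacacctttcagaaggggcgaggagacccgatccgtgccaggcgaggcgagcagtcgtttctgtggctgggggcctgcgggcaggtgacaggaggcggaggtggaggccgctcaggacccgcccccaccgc
Rab31: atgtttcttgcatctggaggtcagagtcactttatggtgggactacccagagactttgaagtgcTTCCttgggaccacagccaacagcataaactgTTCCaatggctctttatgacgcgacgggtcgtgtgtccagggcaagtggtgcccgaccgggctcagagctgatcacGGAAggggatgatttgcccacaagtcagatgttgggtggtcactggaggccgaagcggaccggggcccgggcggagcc
Rab21: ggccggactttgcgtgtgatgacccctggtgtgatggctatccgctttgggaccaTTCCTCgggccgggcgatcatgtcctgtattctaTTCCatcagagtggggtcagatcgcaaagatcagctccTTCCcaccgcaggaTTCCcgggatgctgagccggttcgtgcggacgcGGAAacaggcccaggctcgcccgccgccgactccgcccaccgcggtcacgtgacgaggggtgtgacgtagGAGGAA
The *Rab3d* window holds no match to any of the 3 motifs, that of *Rab27a* 1 GGAA, that of *Rab31* 3 GGAA, and that of *Rab21* 6 GGAA, of which 2 lie in GAGGAA. A match is not a binding site, and these arrays hold no measure of binding.

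Genes that load, switch or read Rab proteins were taken as 4 lists. Of their 99 genes tested, 10 were higher (10.1%) and 7 were lower (7.07%), and the median log2 fold change was 0.03. None of the 5 genes tested of Rab prenylation and recycling to membranes passed. The shares over all genes tested were 6.61% and 5.59%, and no test of a list was made.

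Of the 28 GEF genes tested, 2 rose and 2 fell. *Dennd2a*, a GEF of Rab9, had 7.55, 7.93 and 7.43 in PU.1-deficient pools, against 4.88, 5.57 and 5.75 in wild-type pools. All PU.1-deficient pools were far above the wild-type pools (log2 fold change 2.23, adjusted p = 0.00267). *Rinl*, a GEF of the Rab5 class, rose by 0.72 on the log2 scale (adjusted p = 0.0429), and this call was lost without any 1 of the 6 pools. *Rab3il1*, a GEF of Rab8, was undetected in every PU.1-deficient pool and present in every wild-type pool, and was at least 1.72-fold lower (adjusted p = 0.00417). *Dennd2c*, of the same family as *Dennd2a*, was likewise undetected in PU.1-deficient pools and at least 1.41-fold lower (adjusted p = 0.0154), and it did not pass without PU.1-deficient pool 1 (adjusted p = 0.0623), PU.1-deficient pool 3 (0.0661) or wild-type pool 2 (0.0512).

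Of the 32 GAP genes tested, 4 rose and 2 fell. *Tbc1d8* had 9.12, 8.66 and 8.94 in PU.1-deficient pools, against 6.25, 6.63 and 6.62 in wild-type pools. It was the largest change among the GAPs (log2 fold change 2.40, adjusted p = 0.000607). On the log2 scale, *Tbc1d2*, a GAP of Rab7, rose by 1.63 (adjusted p = 0.00358), *Tbc1d2b* by 1.12 (adjusted p = 0.00604, and 0.111 with equal medians) and *Tbc1d9b* by 0.87 (adjusted p = 0.0448, lost without any 1 of the 6 pools). *Evi5*, a GAP of Rab11, fell by 1.11 on that scale (adjusted p = 0.011), and *Tbc1d1*, a GAP of Rabs in glucose transporter traffic, fell by 0.83 on the log2 scale (adjusted p = 0.0274). *Evi5* did not pass without PU.1-deficient pool 3 (adjusted p = 0.0543), wild-type pool 2 (0.062) or wild-type pool 3 (0.0639), and *Tbc1d1* did not pass without these pools or PU.1-deficient pool 1 (adjusted p of 0.109 to 0.132).

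Of the 34 effector genes tested, 4 rose and 3 fell. *Sytl2*, an effector of Rab27, had 7.97, 8.21 and 7.26 in PU.1-deficient pools, against 4.64, 4.97 and 4.65 in wild-type pools. No wild-type pool was above background, and *Sytl2* was higher in the PU.1-deficient pools by at least 7.13-fold (adjusted p = 0.000711). On the log2 scale, *Rilpl2* rose by 1.33 (adjusted p = 0.00662), *Mical1*, an actin-oxidizing enzyme that Rab8-class and Rab35 proteins bind, rose by 1.16 (adjusted p = 0.00954), and *Appl1*, an effector of Rab5 and Rab21, rose by 0.72 (adjusted p = 0.0455, lost without any 1 of the 6 pools). *Myo5a*, the myosin motor that Rab27a recruits in melanocytes, fell by 0.97 on the log2 scale (adjusted p = 0.0206). *Coro1a*, an actin-binding protein of leukocytes that counts here only through its place on the effector list, fell by 0.78 on this scale (adjusted p = 0.0227). *Ehbp1*, a Rab8 and Rab10 effector, was undetected in PU.1-deficient pools and at least 1.48-fold lower (adjusted p = 0.0105). Without wild-type pool 2, *Mical1* (adjusted p = 0.0545), *Ehbp1* (0.0594), *Myo5a* (0.0752) and *Coro1a* (0.108) did not pass. *Myo5a* and *Coro1a* were also lost without PU.1-deficient pool 3 (0.0878 and 0.0693) or wild-type pool 3 (0.0774 and 0.109), and *Coro1a* without PU.1-deficient pool 1 (0.0949). With equal medians *Mical1* (0.171), *Coro1a* (0.0831) and *Myo5a* (0.0627) did not pass, nor did *Myo5a* over the mean of its probes (0.0838). Among the other Rab27 effectors tested, chosen after their values were seen, none passed. *Unc13d*, the granule priming factor, had 9.88, 10.35 and 9.97 in PU.1-deficient pools and 9.38, 10.10 and 10.13 in wild-type pools (log2 fold change 0.20, adjusted p = 0.744). The fold changes of *Sytl3*, *Sytl4* and *Sytl5*, relatives of *Sytl2*, were 0.23 (adjusted p = 0.589), 0.67 (0.285) and -0.11 (0.799) on the log2 scale.

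**Figure D4:**
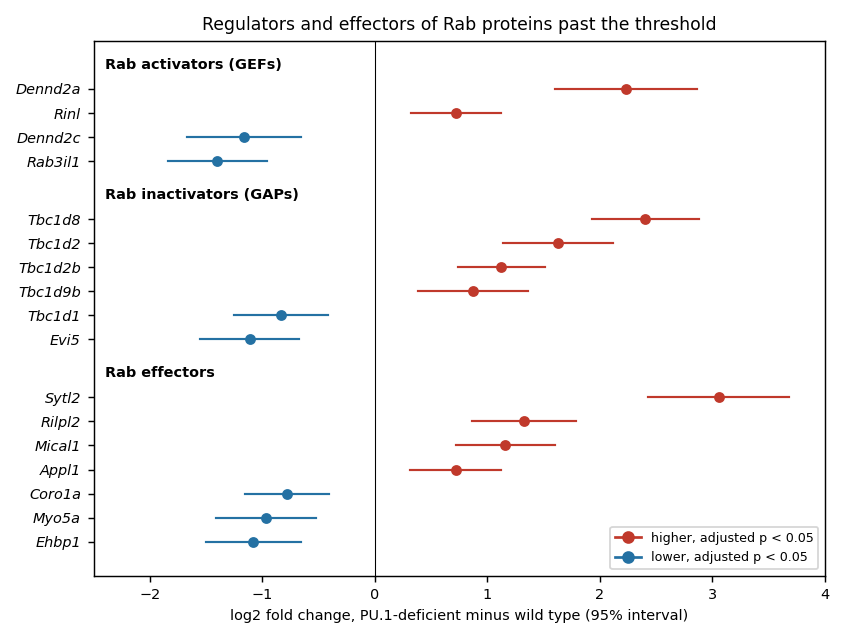
Log2 fold change (PU.1-deficient minus wild type, x axis) with its 95% interval for the 17 regulator and effector genes past the threshold, grouped by list (3 pools per genotype). *Sytl2*, *Tbc1d8* and *Dennd2a* lie above 2, and the 7 genes that fell lie between -1.40 and -0.78. The fitted values of *Sytl2*, *Rab3il1*, *Dennd2c* and *Ehbp1* rest on background signal in 1 genotype.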

How the data were processed

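Arrays of 3 PU.1-deficient and 3 wild-type LSK pools were analysed. The deposited intensities are on a linear scale, hold background and are not normalized. Each has a detection p-value, and the headings of intensity and p-value are swapped in the file. The deposited log2 values were made by the authors with neqc in *limma* (version not given in the sources used here) and served to choose 1 probe per gene. The intensities were normalized with neqc (*limma* 3.58.1, R 4.3.3, offset 16, background inferred from the detection p-values), which lay within 0.026 of the authors' deposited values. Probes with a detection p under 0.05 in at least 1 array, 22119 of 45281, were fitted with lmFit and eBayes and adjusted by Benjamini–Hochberg, at a threshold of 0.05. Gene names came from the platform annotation (16548 probes with 1 name). A gene undetected in every pool of 1 genotype has only a bound, given as at least N-fold or as a bound. It compares means of pools and does not take in their spread.

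The fit was also run on simulated data that took their means and spreads from these arrays, and no result given here rests on that run. The members, role groups and lists were chosen with earlier results of these data known. Genes were named by rule: every Rab gene past the threshold, the 8 others of smallest p, the secretion group, every Rab gene whose 95% interval lay within -0.5 to 0.5, those detected in 1 genotype alone, those whose probes disagree in call, and list genes past the threshold. *Rab1b*, *Rab5a*, *Rab5b* and *Rab6a*, named for their spread, and *Rab11b* were chosen after their values were seen. The labels do not say whether pools came from separate experiments, so the p-values take in only variation between these pools. Each SE, interval and p-value uses the eBayes variance, which is drawn toward a value common to all probes. Each SD is that of the pools of the gene alone, so an SE can exceed it, as for *Rab5c* (SD 0.03 and 0.02, SE 0.15). Background correction, scaling, offset, filters, the authors' log2 values, a replicate block, array weights, averaging of probes and leaving out each pool were tried as alternatives.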

Additional observations from a re-analysis of the deposited data

How the results depend on the processing

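*Rab3d*, *Rab15*, *Rab27a* and *Rab31* passed the threshold in the same direction in all 16 alternatives tried, and of the other 5 called Rab genes, *Rab9* did so in 13, *Rab21* and *Rab44* in 12, *Rab28* in 8 and *Rab19* in 7. *Rab44* did not pass without a filter on dim probes (adjusted p = 0.0642). With scaling to equal medians, *Rab19*, *Rab21*, *Rab28* and *Rab9* were lost, so that 4 Rab genes were higher. The median log2 fold change of the Rab genes was then -0.12, and 5 regulators and effectors were higher. Over all genes tested, 3.32% were higher and 6% lower in that fit. Of all genes called, 35.6% were higher, against 54.2% in the main fit. Array weights, which gave PU.1-deficient pool 3 a weight of 5.13 and PU.1-deficient pool 2 one of 0.28, gave 12 higher and 6 lower Rab genes, a median of 0.01, and 17 higher and 28 lower regulators and effectors, where 14.9% of all genes were higher and 23.3% lower. The cause of these shifts was not tested.

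Leaving out 1 pool at a time gave 4 to 6 higher and 1 to 2 lower Rab genes, with medians of 0.01 to 0.09. It gave 6 to 7 higher regulators and effectors and 1 to 10 lower ones. In the same fits 3.77% to 5.88% of all genes were higher and 2% to 6.73% were lower. Rab genes that were higher numbered 4 without PU.1-deficient pool 1 or wild-type pool 2, and 5 when wild-type pool 3 or one of PU.1-deficient pools 2 and 3 was left out. Regulators and effectors that were lower numbered 4 once the PU.1-deficient pool numbered 1 was left out, and 2 once the one numbered 3 was. The shares of all genes that were lower were then 2.85% and 2.91%. Lower regulators and effectors numbered 1 and 3 once the wild-type pool numbered 2 or the one numbered 3 was left out, where 2.21% and 2% of all genes were lower. With PU.1-deficient pool 2 and wild-type pool 1 both left out, a setting chosen after seeing the data, there were 11 higher and 3 lower Rab genes, and 13 higher and 23 lower regulators and effectors, where 12.3% of all genes were higher and 17.5% lower.

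The labels do not say whether pools of the same number belong together. Deviations of same-numbered pools correlated at 0.72, 0.61 and -0.15, and those of differently numbered pools at -0.68 to 0.52. These values do not settle whether the pools are paired. Median raw intensity was 89.5 in PU.1-deficient pool 2 and 91.6 in wild-type pool 3, against 111.6 to 116.5 in the others. The arrays of these dimmer pools shared 202 identical raw values, and 0 to 18 with each other array. PU.1-deficient pool 2 also had the fewest detected probes, 15639. The part of such differences between arrays was not tested. With the replicate block, 4 Rab genes were lower and 9 higher, and 14 regulators and effectors were lower, where 10.2% of all genes were lower and 9.25% higher. *Rab11a*, *Rab37*, *Rab4a* and *Rab6b* joined the calls.

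No Rab gene past the threshold turned sign in any alternative. Of all 48, 14 turned with equal medians, each to lower and under a shift common to all genes, 9 with array weights, 3 to 9 without 1 pool, 10 without both pools named above and 1 over the mean of probes. Among the genes whose log2 fold changes are given singly, those with equal medians were *Rab1b* (-0.01), *Rab29* (-0.27), *Rab2a* (-0.10), *Rab3a* (-0.23), *Rab43* (-0.20) and *Rab5b* (-0.27), and with array weights *Rab2a* (-0.12), *Rab3a* (-0.31) and *Rab5b* (-0.15). Leaving out 1 pool gave -0.08 to 0.93 for *Rab1b* (-0.05 without wild-type pool 2), -0.02 to 0.14 for *Rab29*, -0.11 to 0.10 for *Rab2a* (-0.02 without PU.1-deficient pool 2), -0.13 to 0.31 for *Rab3a* (-0.12 without PU.1-deficient pool 2), and -0.51 to 0.59 for *Rab5b* (-0.25 and -0.10 without PU.1-deficient pools 2 and 3). Leaving out both pools named above gave 1.54 for *Rab1b*, -0.15 for *Rab2a*, -0.33 for *Rab3a* and -0.84 for *Rab5b*. Array signal over background limits *Rab7b*, *Rab15*, *Rab19*, *Rab23* and *Rab36*, each undetected in all pools of 1 genotype.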
